A study of Mus musculus with 10 samples.

Results

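The 41 genes described here act in the DNA damage checkpoint and in DNA repair, and were taken by symbol from the 52324 genes with a symbol in the deposited table of 4T1 tumours. They comprise 7 genes for damage sensing and checkpoint kinases and 5 for the chromatin mark, mediators and ubiquitin ligases at breaks. A further 7 act in end resection, 7 in homologous recombination, 6 in the Fanconi anaemia pathway, 5 in end joining and 4 in single-strand break, base and mismatch repair. The list was drawn up by function, with earlier results of these data known. The tumours grew under the skin from 4T1, a mammary carcinoma line of the mouse, and were taken on day 14, with 2 libraries in each of 5 groups. The control group was labelled negative control, and the design text names PBS for it. Tumours of 2 groups were treated with Free-MK1775 or Lipo-MK1775, and those of the remaining 2 with Free-MK1775+NLG919 or with Lipo-MK1775+NLG, where the design text names NLG919 as well. The labels give neither the doses nor the make-up of the Lipo form, and they do not say whether libraries of a group came from separate mice. The p values therefore measure only the spread between these samples, which may be technical.

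MK1775 inhibits WEE1, the kinase that holds the cell cycle kinase CDK1 inactive until DNA is intact, and NLG919 inhibits the tryptophan-degrading enzyme IDO1. Broken or single-stranded DNA activates the kinases ATM, ATR and DNA-PK, and ATR acts through CHEK1 on the same CDK1 switch that WEE1 controls. Breaks are then joined end to end, or are resected and copied from the sister chromatid by homologous recombination, and many genes of the second route are transcribed mainly in dividing cells.

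Levels are given as ppm, parts per 1000000: the FPKM (fragments per kilobase of transcript per 1000000 mapped fragments) of all transcripts with a gene's symbol were summed and divided by the library's FPKM sum over all chromosomes other than the mitochondrial one. This scaling was used because 3 libraries stood apart, with 47.3% of summed FPKM from the mitochondrial chromosome in Free-MK1775+NLG919 replicate 2 and 64.1% and 56.0% in the Lipo-MK1775 libraries, against 2.88% to 4.82% in the other 7. The ribosomal RNA gene Rn18s was at 10374, 17973 and 13537 ppm in these 3 and at 1645 to 4727 in the others. Both Lipo-MK1775 libraries were in this set, so the effect of the Lipo form and the mitochondrial share cannot be told apart in that group. Relative depth was estimated from the most common value of FPKM times length at single-exon loci with 1 transcript, taken as 1 read. It ranged from 1 in Lipo-MK1775 replicate 1 to 1.96 in negative control replicate 1. The median of the 41 genes rested on about 55.7 to 88.9 reads in the 3 libraries and about 324 to 674 in the other 7, so the 3 libraries carry the larger counting error. Pearson correlations between replicates over all genes ran from 0.899 for Free-MK1775+NLG919 to 0.962 for Lipo-MK1775+NLG.

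For 12 of the 41 genes, under 80% of the level at the locus carried the gene's symbol, because the authors' assembly also listed transcripts there without one. The symbol held 2.55% of the level at Atm, 10.4% at Clspn, 29.7% at Mdc1, 30.6% at Atrip and 45.7% at Atr. For these genes a locus level is given as well, in which such transcripts were added to the symbol they overlapped most. With symbols alone, 40 of the 41 genes passed the filter of at least 1 ppm in at least 2 libraries and Atm did not; with the added transcripts all 41 passed. At 6 loci the assembly also listed 1 or more other symbols, among them Trex1 at Atrip. Whether reads of the genes could be told apart there was not tested.

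The checkpoint and repair genes were at their lowest in the 3 libraries of high mitochondrial share. With symbols alone, 33 of 40 genes (82.5%) were lower in each of the 3 than in each of the other 7, as were 46.3% of all 15469 genes tested. At locus level this held for 39 of 41 genes (95.1%) against 56.4% of all genes, and the 2 exceptions were Chek2 and Palb2. Outside these 3 libraries the values were closer to the control. The median of the genes' locus levels, as log2(ppm + 1) minus the control mean, was -0.43 and -0.10 in the Free-MK1775 libraries, -0.59 in Free-MK1775+NLG919 replicate 1, and -0.18 and -0.35 in the Lipo-MK1775+NLG libraries. It was -1.64, -1.37 and -1.53 in the 3 libraries. The genes below the control mean numbered 37 and 27 of 41 after Free-MK1775, 38 and 39 after Free-MK1775+NLG919, 41 and 41 after Lipo-MK1775, and 34 and 37 after Lipo-MK1775+NLG. Much of this was shared by all genes. In the same order, 62.1%, 76.6%, 85.2% and 54.6% of all genes had a negative locus-level change of the group mean. The medians of all genes were -0.07, -0.47, -0.84 and -0.03. These figures share the 2 control libraries.

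**Figure D1:**
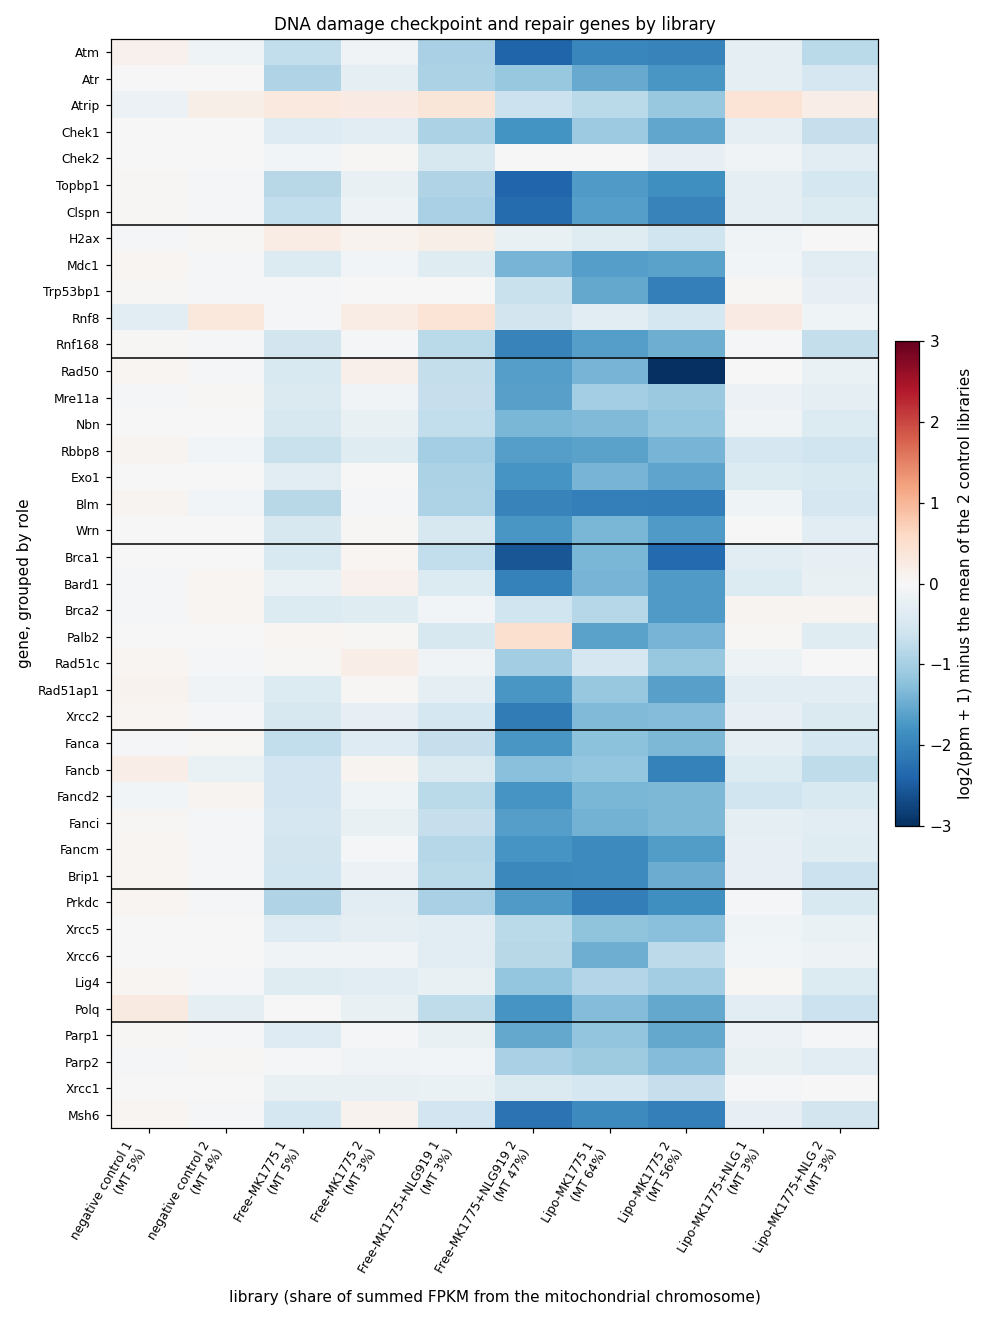
Locus level of each of the 41 genes (rows, grouped by role from sensing at the top to single-strand break and mismatch repair at the bottom) in each library (columns), as log2(ppm + 1) minus the mean of the control libraries; blue is lower and red is higher. The columns of Free-MK1775+NLG919 replicate 2 and of both Lipo-MK1775 libraries are the darkest blue, with Chek2 near the control mean in all 3 and Palb2 above it in the first.

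Genes of this set are often named as targets of E2F, the factor that drives S phase genes, so the 250 bases before each transcription start were searched on both strands for the E2F words TTTCCCGC, TTTCGCGC, TTTGCCGC and TTTGGCGC. Sequences came from a RefSeq table of build GRCm38.p6, which held 34 promoters for 32 of the 41 genes; those of Exo1, Fancd2, H2ax, Nbn, Prkdc, Rad50, Rbbp8, Wrn and Xrcc2 were not analysed here. An E2F word stood in 6 of the 34 promoters (17.6%) and in 1.86% of all 32851 promoters of the table: those of Bard1, Brca2, Chek2, Mdc1, Topbp1 and Xrcc6. The word CCAAT stood in 17 (50%, against 33.8% of all), the GC box GGGCGG in 22 (64.7%, against 32.7%) and TTTGAA, the core of the CHR element of mitotic genes, in 3 (8.82%, against 16%). A GC box and an E2F word both consist largely of G and C, and the base composition of the promoters was not matched. A match is a run of letters and shows no binding. The promoters of a recombination gene, a checkpoint kinase, an activator of ATR and an end-joining gene are printed 5′ to 3′ on the gene's strand, with the E2F word or its reverse complement in capitals, starting 209 (Bard1), 152 (Chek2), 129 (Topbp1) and 46 (Xrcc6) bases before the start.
Bard1 (chr1:71102973-71103222, minus strand): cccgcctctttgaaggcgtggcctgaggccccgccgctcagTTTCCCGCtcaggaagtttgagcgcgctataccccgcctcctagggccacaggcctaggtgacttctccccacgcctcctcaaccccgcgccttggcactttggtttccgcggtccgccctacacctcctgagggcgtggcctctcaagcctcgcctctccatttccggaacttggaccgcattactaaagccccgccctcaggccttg
Chek2 (chr5:110839733-110839982, plus strand): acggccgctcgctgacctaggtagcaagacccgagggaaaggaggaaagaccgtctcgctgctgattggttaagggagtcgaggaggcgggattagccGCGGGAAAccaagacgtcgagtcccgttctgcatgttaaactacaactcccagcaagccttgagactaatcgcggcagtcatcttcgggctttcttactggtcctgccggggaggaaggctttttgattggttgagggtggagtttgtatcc
Topbp1 (chr9:103305077-103305326, plus strand): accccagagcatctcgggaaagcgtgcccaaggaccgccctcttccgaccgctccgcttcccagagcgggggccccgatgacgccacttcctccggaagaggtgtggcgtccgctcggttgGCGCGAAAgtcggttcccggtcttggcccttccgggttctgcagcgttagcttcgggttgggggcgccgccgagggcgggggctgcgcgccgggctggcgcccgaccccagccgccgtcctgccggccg
Xrcc6 (chr15:82016119-82016368, plus strand): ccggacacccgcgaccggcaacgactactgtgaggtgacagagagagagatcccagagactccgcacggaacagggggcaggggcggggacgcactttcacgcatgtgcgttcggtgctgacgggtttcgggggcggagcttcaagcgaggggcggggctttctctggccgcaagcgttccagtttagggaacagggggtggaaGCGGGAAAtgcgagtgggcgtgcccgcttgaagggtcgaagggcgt

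Among the sensing and checkpoint genes, Chek1, the kinase that ATR activates, fell after Lipo-MK1775. Chek1 (GRCm39 chromosome 9, 36619778 to 36638361) was at 40.3 and 40.5 ppm in the control, 30.9 and 31.6 after Free-MK1775, 20.5 and 10.9 after Free-MK1775+NLG919, 18.3 and 13 after Lipo-MK1775, and 33.6 and 24.4 after Lipo-MK1775+NLG. All 4 Lipo-MK1775 and Free-MK1775+NLG919 libraries lay below every other library. The log2 change for Lipo-MK1775 against the control was -1.34 (SE 0.35, adjusted p = 0.0369). Atr (GRCm39 chromosome 9, 95739650 to 95834157) encodes the kinase that binds single-stranded DNA through its partner Atrip. It was at 6.28 and 10.4 ppm in the control, 0.304 and 4.65 after Free-MK1775, 0.737 and 0.0736 after Free-MK1775+NLG919, 0.0994 and 0.218 after Lipo-MK1775, and 5.77 and 0.68 after Lipo-MK1775+NLG by symbol. Its symbol level varied widely between replicates, and at locus level Atr was at 10.3 and 10.4 ppm in the control, 5.08 and 8.42 after Free-MK1775, 4.83 and 4.14 after Free-MK1775+NLG919, 2.95 and 2.36 after Lipo-MK1775, and 8.4 and 7.04 after Lipo-MK1775+NLG. The locus values were highest in the control and lowest after Lipo-MK1775, with no overlap between those groups. The Lipo-MK1775 change of Atr was -2.97 (SE 0.79, adjusted p = 0.0379) by symbol and -1.64 (SE 0.33, adjusted p = 0.0123) at locus level. The size thus depended on which transcripts were summed, while Atr was called with both sums. By symbol Atr rested on about 0.325 and 3.66 reads in the Lipo-MK1775 libraries. Of all genes, 19.4% fell by symbol and 39.1% at locus level.

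Atm, the kinase that responds to double-strand breaks, lay at or under 0.675 ppm in every library by symbol and was not tested. At locus level Atm (GRCm39 chromosome 9, 53350449 to 53448040) was at 13.5 and 11 ppm in the control, 6.96 and 11.3 after Free-MK1775, 5.68 and 1.5 after Free-MK1775+NLG919, 2.38 and 2.29 after Lipo-MK1775, and 9.94 and 6.49 after Lipo-MK1775+NLG. Every library of high mitochondrial share lay below the other 7, and the locus-level change after Lipo-MK1775 was -1.98 (SE 0.47, adjusted p = 0.0151). Chek2, the kinase downstream of ATM, was at 12.1 and 12.3 ppm in the control, 11.4 and 13 after Free-MK1775, 8.37 and 3.67 after Free-MK1775+NLG919, 5.21 and 5.24 after Lipo-MK1775, and 11.3 and 9.5 after Lipo-MK1775+NLG by symbol. Its locus levels did not follow the same order: they were 12.5 and 12.7 ppm in the control, 11.8 and 13 after Free-MK1775, 8.78 and 12.6 after Free-MK1775+NLG919, 12.4 and 10.4 after Lipo-MK1775, and 11.6 and 9.85 after Lipo-MK1775+NLG. Both Lipo-MK1775 values of Chek2 then lay within the range of the libraries of low mitochondrial share, 8.78 to 13 ppm, and the change was -0.13 (SE 0.29, adjusted p = 0.72), against -1.08 (SE 0.39, adjusted p = 0.0712) by symbol, so neither value of Chek2 was called.

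The other genes of this role were Atrip, Topbp1 and Clspn. Atrip, the ATR partner, was at 8.89 and 11.3 ppm in the control, 7.54 and 4.56 after Free-MK1775, 5.85 and 2.1 after Free-MK1775+NLG919, 2.04 and 4.01 after Lipo-MK1775, and 4.83 and 6.14 after Lipo-MK1775+NLG by symbol. Its locus also carried the symbol Trex1. With the added transcripts Atrip was at 16.8 and 21.5 ppm in the control, 23.4 and 22.9 after Free-MK1775, 24.9 and 11.8 after Free-MK1775+NLG919, 10.5 and 8.12 after Lipo-MK1775, and 25.8 and 21.8 after Lipo-MK1775+NLG. By symbol every treated library was below both controls, and at locus level the 5 treated libraries of low mitochondrial share were above both. Topbp1, which switches ATR on, had a locus level of 78.9 and 74.1 ppm in the control, 42.8 and 64.9 after Free-MK1775, 40.5 and 13.9 after Free-MK1775+NLG919, 22.9 and 20.8 after Lipo-MK1775, and 61.9 and 52.7 after Lipo-MK1775+NLG. The locus-level change after Lipo-MK1775 was -1.76 (SE 0.42, adjusted p = 0.0152). By symbol Topbp1 was at 41.6 and 42.5 ppm in the control and at 16.9 and 18.6 after Lipo-MK1775. That symbol change of -1.20 was not called. Clspn, the adaptor between ATR and CHEK1, reached 1 ppm by symbol only in the Lipo-MK1775 pair and in Lipo-MK1775+NLG replicate 1. It thus passed the filter through the libraries where it was high, and its symbol change is not given, though it counts among the 40 genes tested. At locus level its Lipo-MK1775 value was -1.83 (SE 0.44, adjusted p = 0.0154). By symbol, 2 of the 6 genes of this role tested (Atr and Chek1) fell after Lipo-MK1775, where 19.4% of all genes tested fell.

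At chromatin around breaks, Trp53bp1 and Rnf168 fell after Lipo-MK1775, 2 of 5 genes, where 19.4% of all genes fell. Trp53bp1 (GRCm39 chromosome 2, 121023762 to 121101888) encodes 53BP1, which shields ends from resection. It was at 21.2 and 20.3 ppm in the control, 20.3 and 21 after Free-MK1775, 20.8 and 12.9 after Free-MK1775+NLG919, 6.7 and 4.31 after Lipo-MK1775, and 21 and 15.8 after Lipo-MK1775+NLG. All 7 libraries of low mitochondrial share held 15.8 to 21.2 ppm, while the Lipo-MK1775 pair lay at or below 6.70, a log2 change of -1.76 (SE 0.35, adjusted p = 0.0274). Free-MK1775+NLG919 replicate 2, the third library of high mitochondrial share, was between them. Rnf168, the ligase that extends the ubiquitin mark on histones, was at 29.8 and 28.8 ppm in the control, 19.6 and 28.5 after Free-MK1775, 16.4 and 6.52 after Free-MK1775+NLG919, 8.57 and 9.96 after Lipo-MK1775, and 27.9 and 17.3 after Lipo-MK1775+NLG. Its change was -1.56 (adjusted p = 0.0408). H2ax, the histone variant that carries the phosphorylated mark, had the highest level of the set. It was at 164 and 174 ppm in the control, 198 and 182 after Free-MK1775, 192 and 144 after Free-MK1775+NLG919, 131 and 112 after Lipo-MK1775, and 157 and 171 after Lipo-MK1775+NLG. H2ax was above both controls in both Free-MK1775 libraries and below both in both Lipo-MK1775 libraries, with a Lipo-MK1775 value of -0.48 (SE 0.22, adjusted p = 0.126), not called. Rnf8, which starts the ubiquitin mark, ranged from 6.97 to 14.7 ppm and was not called at -0.43 (adjusted p = 0.438). Mdc1, the reader of marked H2ax, was not called by symbol at -2.13 (adjusted p = 0.0848), and its locus-level value was -1.62 (SE 0.36, adjusted p = 0.0136).

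In end resection, Rad50, Rbbp8, Blm and Wrn fell after Lipo-MK1775, 4 of 7 genes by symbol, where 19.4% of all genes fell. Blm (GRCm39 chromosome 7, 80104481 to 80184867) encodes a helicase that unwinds ends and dissolves recombination intermediates. Its level was 14.2 and 12.3 ppm in the control, 6.97 and 12.6 after Free-MK1775, 6.49 and 2.54 after Free-MK1775+NLG919, 2.43 and 2.4 after Lipo-MK1775, and 12.1 and 9.05 after Lipo-MK1775+NLG. The 3 libraries of high mitochondrial share lay between 2.40 and 2.54 ppm, below all others, and the Lipo-MK1775 change was -2.06 (SE 0.45, adjusted p = 0.0293). Wrn (GRCm39 chromosome 8, 33724412 to 33875555), the Werner syndrome helicase, was at 13.9 and 14.8 ppm in the control, 10.4 and 15.3 after Free-MK1775, 3.05 and 0.235 after Free-MK1775+NLG919, 0.577 and 0.347 after Lipo-MK1775, and 14.8 and 2.95 after Lipo-MK1775+NLG by symbol. At locus level Wrn was at 15.1 and 14.8 ppm in the control, 10.4 and 15.3 after Free-MK1775, 10.4 and 3.74 after Free-MK1775+NLG919, 5.15 and 3.88 after Lipo-MK1775, and 14.8 and 11.6 after Lipo-MK1775+NLG. The low symbol values of Free-MK1775+NLG919 replicate 1 and Lipo-MK1775+NLG replicate 2 were thus not seen at locus level, and the Lipo-MK1775 change was -3.39 (SE 0.72, adjusted p = 0.0283) by symbol and -1.54 (SE 0.42, adjusted p = 0.021) at locus level.

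Rad50 (GRCm39 chromosome 11, 53540346 to 53598146), the ATPase that tethers ends in the MRN complex, was at 21.7 and 20.3 ppm in the control, 15.1 and 23.6 after Free-MK1775, 12.3 and 6.06 after Free-MK1775+NLG919, 7.35 and 0.614 after Lipo-MK1775, and 21.1 and 18.3 after Lipo-MK1775+NLG. Its change after Lipo-MK1775, -2.58 (SE 0.69, adjusted p = 0.0378), rested in part on replicate 2, which had the lowest Rad50 level of all libraries. Rbbp8, which encodes CtIP, the factor that starts resection with MRN, was at 17.8 and 15.6 ppm in the control, 8.9 and 12.5 after Free-MK1775, 2.18 and 5.81 after Free-MK1775+NLG919, 1.44 and 3.6 after Lipo-MK1775, and 9.67 and 9.88 after Lipo-MK1775+NLG by symbol. That gave a change of -2.40 (SE 0.47, adjusted p = 0.0274). Its locus levels were 21.7 and 19 ppm in the control, 12.4 and 15.7 after Free-MK1775, 9.59 and 5.81 after Free-MK1775+NLG919, 5.98 and 7.05 after Lipo-MK1775, and 14.1 and 13 after Lipo-MK1775+NLG. All treated locus values of Rbbp8 were below both controls, and the Lipo-MK1775 change at locus level was -1.51 (SE 0.32, adjusted p = 0.0125).

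The remaining resection genes were Mre11a and Nbn of the MRN complex and the nuclease Exo1. Mre11a was at 14 and 21.1 ppm in the control, 17.2 and 8.08 after Free-MK1775, 5.79 and 2.24 after Free-MK1775+NLG919, 4.16 and 10.8 after Lipo-MK1775, and 14.5 and 4.64 after Lipo-MK1775+NLG by symbol. Its replicates differed most after Lipo-MK1775+NLG. At locus level Mre11a was at 24 and 25.1 ppm in the control, 18 and 22.7 after Free-MK1775, 14.8 and 7.21 after Free-MK1775+NLG919, 11.6 and 10.8 after Lipo-MK1775, and 21.5 and 19.7 after Lipo-MK1775+NLG, with a Lipo-MK1775 change of -1.07 (SE 0.34, adjusted p = 0.0319). Nbn, which brings MRN to breaks, was at 22.3 and 20.1 ppm in the control, 15 and 20.4 after Free-MK1775, 14.8 and 9.14 after Free-MK1775+NLG919, 9.5 and 10.8 after Lipo-MK1775, and 3.02 and 8.85 after Lipo-MK1775+NLG by symbol. At locus level Nbn was at 24.9 and 25.6 ppm in the control, 17.9 and 21.6 after Free-MK1775, 14.8 and 9.14 after Free-MK1775+NLG919, 9.5 and 10.8 after Lipo-MK1775, and 23.6 and 18.8 after Lipo-MK1775+NLG. The low symbol values of Nbn after Lipo-MK1775+NLG, 3.02 and 8.85 ppm, became 23.6 and 18.8 ppm with the added transcripts. Exo1 was at 4.95 and 7.56 ppm in the control, 1.33 and 4.96 after Free-MK1775, 2.98 and 1.66 after Free-MK1775+NLG919, 1.56 and 1.16 after Lipo-MK1775, and 4.77 and 3.2 after Lipo-MK1775+NLG by symbol. Its Lipo-MK1775 value was -1.60 (SE 0.51, adjusted p = 0.0524), not called, while at locus level it was -1.50 (SE 0.36, adjusted p = 0.0153).

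For homologous recombination, 1 of 7 genes, Palb2, fell after Lipo-MK1775 by symbol, against 19.4% of all genes, and all 7 values were negative, from -1.75 to -0.82. Of all genes, 82.8% had a negative value in that comparison. Palb2 (GRCm39 chromosome 7, 121706485 to 121732208), the bridge between BRCA1 and BRCA2, was at 5.2 and 5.08 ppm in the control, 5.42 and 5.28 after Free-MK1775, 3.39 and 7.57 after Free-MK1775+NLG919, 1.03 and 1.34 after Lipo-MK1775, and 5.25 and 3.79 after Lipo-MK1775+NLG. Its highest and lowest values both came from libraries of high mitochondrial share: Free-MK1775+NLG919 replicate 2 was above all others and the Lipo-MK1775 pair below all others, a change of -1.49 (SE 0.41, adjusted p = 0.0389). Brca1, which directs ends to recombination, was at 15 and 15.4 ppm in the control, 7.94 and 10.5 after Free-MK1775, 7.95 and 1.93 after Free-MK1775+NLG919, 5.72 and 2.44 after Lipo-MK1775, and 10.8 and 13.4 after Lipo-MK1775+NLG. By symbol every treated library was below both controls, while at locus level Free-MK1775 replicate 2 was above them. The Lipo-MK1775 value of Brca1 was -1.75 (SE 0.55, adjusted p = 0.0523) by symbol, not called, and -1.85 (SE 0.55, adjusted p = 0.0266) at locus level. Brca2, a mediator of homologous recombination, was at 4.5 and 4.97 ppm in the control, 3.32 and 3.48 after Free-MK1775, 4.45 and 2.76 after Free-MK1775+NLG919, 2.15 and 0.773 after Lipo-MK1775, and 5.02 and 5.07 after Lipo-MK1775+NLG. Its values after Lipo-MK1775+NLG were above the control, and its Lipo-MK1775 value was -1.28 (SE 0.40, adjusted p = 0.0515), not called. Of the others, Bard1, the BRCA1 partner, lay between 1.56 and 10.3 ppm, the accessory gene Rad51ap1 between 3.69 and 15.2, and the recombination genes Rad51c and Xrcc2 between 2.45 and 7.72 and between 0.997 and 7.94. All 4 were lower in the 3 libraries of high mitochondrial share than in the other 7. At locus level 6 of the 7 genes of this role had an adjusted p under 0.05 after Lipo-MK1775, against 39.1% of all genes that fell, and Rad51c (0.107) did not.

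The Fanconi anaemia genes, which repair crosslinks between DNA strands, fell after Lipo-MK1775 in 5 of 6 cases, where 19.4% of all genes fell. Fancm (GRCm39 chromosome 12, 65122377 to 65178832), the translocase that anchors the core complex, was at 6.13 and 5.65 ppm in the control, 3.72 and 5.67 after Free-MK1775, 2.78 and 1.03 after Free-MK1775+NLG919, 0.818 and 1.15 after Lipo-MK1775, and 4.79 and 4.4 after Lipo-MK1775+NLG. Brip1 (GRCm39 chromosome 11, 85948964 to 86092019), the helicase bound to BRCA1, was at 10.3 and 9.31 ppm in the control, 6.16 and 8.49 after Free-MK1775, 5.16 and 1.81 after Free-MK1775+NLG919, 1.89 and 2.85 after Lipo-MK1775, and 8.06 and 5.92 after Lipo-MK1775+NLG. Both genes had both Lipo-MK1775 values below every library of low mitochondrial share, with changes of -1.80 (SE 0.41, adjusted p = 0.03) for Fancm and -1.69 (SE 0.45, adjusted p = 0.0378) for Brip1. Fanci (-1.39) and Fancd2 (-1.37), the sliding clamp that the core complex marks with ubiquitin, and the core gene Fancb (-1.60) fell as well, with adjusted p values of 0.0427, 0.0474 and 0.0456. The core gene Fanca was at 12.4 and 13.2 ppm in the control, 7.25 and 9.62 after Free-MK1775, 6.45 and 2.27 after Free-MK1775+NLG919, 4.52 and 4.2 after Lipo-MK1775, and 10.2 and 8.51 after Lipo-MK1775+NLG. Fanca values in all treated libraries were below both controls, and its Lipo-MK1775 value of -1.36 (SE 0.43, adjusted p = 0.0525) was not called.

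Of the end-joining genes, 4 of 5 fell after Lipo-MK1775, where 19.4% of all genes fell. Prkdc (GRCm39 chromosome 16, 15455730 to 15660099) encodes the catalytic subunit of DNA-PK and has the longest transcript of the set. It was at 5.5 and 5.05 ppm in the control, 2.38 and 3.98 after Free-MK1775, 2.2 and 0.946 after Free-MK1775+NLG919, 0.493 and 0.742 after Lipo-MK1775, and 5.16 and 3.58 after Lipo-MK1775+NLG. Both Free-MK1775+NLG919 values of Prkdc were below those of the control, Lipo-MK1775+NLG replicate 1 was between the controls, and the Lipo-MK1775 change was -1.96 (SE 0.40, adjusted p = 0.0277). Xrcc5, which encodes the Ku80 subunit that holds ends, was at 49.4 and 49.6 ppm in the control, 37.9 and 41.2 after Free-MK1775, 38.8 and 27.9 after Free-MK1775+NLG919, 20.8 and 20.3 after Lipo-MK1775, and 44.9 and 42.7 after Lipo-MK1775+NLG. Its Lipo-MK1775 change was -1.23 (SE 0.25, adjusted p = 0.0277). Its partner Xrcc6, for Ku70, whose promoter is printed above, fell by 1.12 on the log2 scale (adjusted p = 0.0393) from 34.4 ppm in both controls to 11.9 and 19.5. Polq, the polymerase of a back-up joining route, was at 4.18 and 2.54 ppm in the control, 3.22 and 2.65 after Free-MK1775, 1.53 and 0.255 after Free-MK1775+NLG919, 0.731 and 0.47 after Lipo-MK1775, and 2.37 and 1.75 after Lipo-MK1775+NLG. Its change was -1.42 (SE 0.42, adjusted p = 0.0457). The ligase gene Lig4 ranged from 1.55 to 4.95 ppm and was not called (-0.95, adjusted p = 0.108).

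Of the single-strand break, base and mismatch repair genes, Parp1, Parp2 and Msh6 fell after Lipo-MK1775, 3 of 4, where 19.4% of all genes fell. Parp1, which senses single-strand breaks and is the target of PARP inhibitors, was at 69.8 and 65.7 ppm in the control, 51.6 and 66.4 after Free-MK1775, 57.5 and 22.9 after Free-MK1775+NLG919, 29.2 and 22.9 after Lipo-MK1775, and 60.3 and 65.7 after Lipo-MK1775+NLG. Its values were 51.6 to 69.8 ppm in the 7 libraries of low mitochondrial share and 22.9 to 29.2 in the 3 others, and the Lipo-MK1775 change was -1.36 (SE 0.39, adjusted p = 0.0437). Msh6 (GRCm39 chromosome 17, 88282490 to 88298320), which recognises mismatches, was at 54.9 and 50.4 ppm in the control, 36.2 and 56.8 after Free-MK1775, 34.7 and 10.5 after Free-MK1775+NLG919, 13.2 and 11.9 after Lipo-MK1775, and 43.9 and 35.3 after Lipo-MK1775+NLG. Its change was -1.98 (SE 0.49, adjusted p = 0.0333). Parp2, a relative of Parp1, was at 33.9 and 35.4 ppm in the control, 20.8 and 30.5 after Free-MK1775, 24.5 and 20.4 after Free-MK1775+NLG919, 18.4 and 16.1 after Lipo-MK1775, and 31.4 and 32.5 after Lipo-MK1775+NLG. Its change was -0.97 (SE 0.28, adjusted p = 0.0429). Xrcc1, the scaffold for ligation, was at 42.5 and 46.3 ppm in the control, 38.6 and 33.8 after Free-MK1775, 34 and 34.1 after Free-MK1775+NLG919, 32.3 and 28.8 after Lipo-MK1775, and 42.8 and 46 after Lipo-MK1775+NLG. Its Lipo-MK1775 value was -0.53 (SE 0.23, adjusted p = 0.115), not called.

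In Lipo-MK1775 tumours set against control tumours, 21 of 40 genes fell (52.5%) and 0 rose, where 19.4% of all genes tested fell and 1.62% rose. The genes' median log2 change was -1.38 and that of all genes -0.78, a difference of -0.60, and 36 of 40 genes lay below the median of all genes. Both Lipo-MK1775 libraries were below both controls for 39 genes, as for 67.2% of all genes, and 8.4% of all genes were above. The other gene was Clspn, which passed the filter only through libraries with Lipo-MK1775, so its place above the control by symbol was selected by the filter. The adjusted p values of the called genes lay between 0.0274 and 0.0474, close under the threshold. The count of called genes moved with single libraries: it was 0 when either library of the control or of Lipo-MK1775+NLG, or replicate 2 of Lipo-MK1775, was left out, 1 without Lipo-MK1775 replicate 1, 7 and 8 without Free-MK1775 replicate 1 and 2, and 35 without either Free-MK1775+NLG919 library. The last 3 of these counts stood beside 5.52%, 6.17% and 49.1% of all genes called. The difference of medians ranged from -0.75 to -0.55 over the same fits. The scaling moved the count as well. It was 35 of 39 with FPKM as deposited, where 47.3% of all genes fell, 34 of 41 at locus level, where 39.1% fell, 3 with median-of-ratios scaling and 0 when each library was centred within classes of level and transcript length. With median-of-ratios scaling 6% of all genes were called, and with centring 2.3%.

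**Figure D2:**
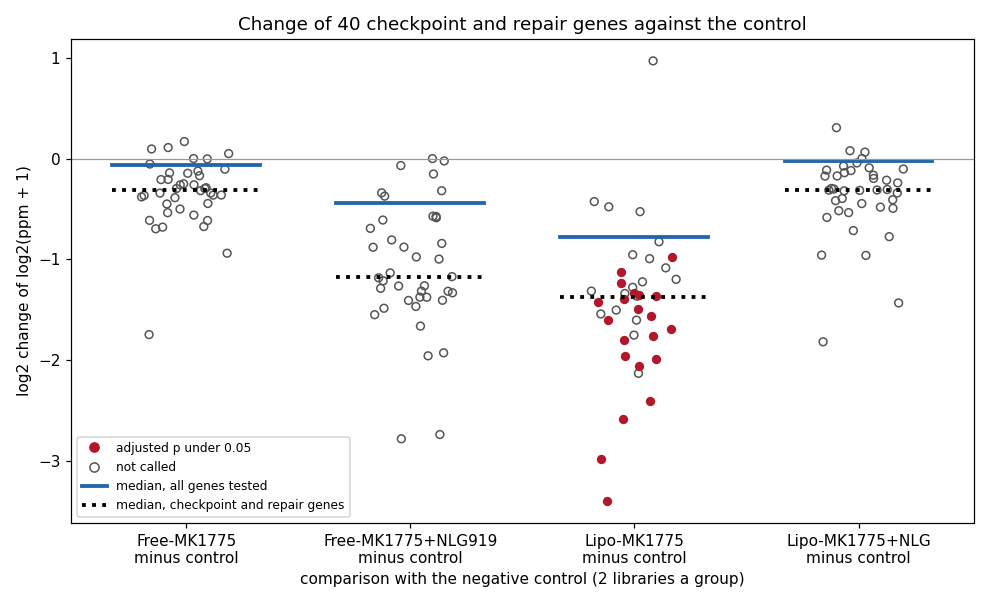
Log2 change against the control (vertical axis, of log2(ppm + 1)) of the 40 genes tested in each treated group (horizontal axis); each circle is a gene, filled red where the adjusted p was under 0.05, and lines mark the medians of all genes tested (solid) and of the 40 genes (dotted). Filled circles appear after Lipo-MK1775 only among these 4 comparisons, and the dotted line lies below the solid line in each.

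**Figure D3:**
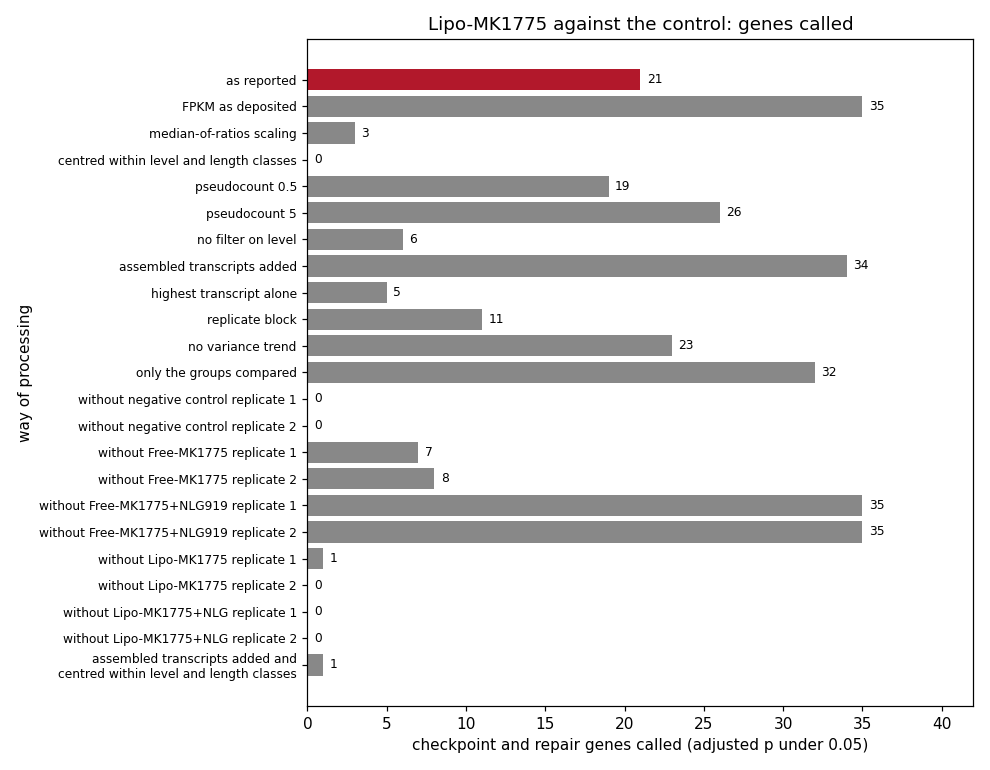
Number of checkpoint and repair genes with an adjusted p under 0.05 for Lipo-MK1775 against the control (horizontal axis) under each way of processing (vertical axis); the red bar is the reported count. The bars run from 0 to 35.

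After Free-MK1775 no gene of the set was called (limma, 0 of 40, with 0 at an unadjusted p under 0.05), where 0.00646% of all genes were called lower and the same share higher. Of all 15469 genes, 303 had an unadjusted p under 0.05. The genes' median was -0.31 and that of all genes -0.06. Both Free-MK1775 libraries were below both controls for 19 genes, against 20.2% of all genes, and above them for 2, against 13.1%. The 5 genes of smallest unadjusted p were Atr (-1.74), Exo1 (-0.94), Parp2 (-0.45), Prkdc (-0.61) and Atrip (-0.68), each with an adjusted p of 1. At locus level the same values were -0.58, -0.17, -0.07, -0.61 and 0.27, so Atrip turned positive and Parp2 came close to 0.

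Free-MK1775+NLG919 joined a library of low and a library of high mitochondrial share, and limma called 0 of 40 genes, with 20 at an unadjusted p under 0.05 and 0.0194% of all genes called lower. Of all 15469 genes, 3353 had an unadjusted p under 0.05. The genes' median was -1.18 and that of all genes -0.44, the widest gap of the 4 comparisons with the control. All 40 values were negative, as were 74.1% of those of all genes. In both libraries 34 genes were lower than in both controls, against 40.7% of all genes, and 0 were higher in both, against 9.87%. The 5 genes of smallest p were Rbbp8 (-1.93 (SE 0.47, adjusted p = 0.137)), Chek1 (-1.37 (SE 0.35, adjusted p = 0.143)), Wrn (-2.78), Atr (-2.73) and Fanca (-1.48). At locus level the lowest value of the set was -1.69, so the Rbbp8, Wrn and Atr values were smaller in size there. Without replicate 1, so that the group was the library of high mitochondrial share alone, 25 genes were called, as were 41.5% of all genes. Without replicate 2, 0 were called and the difference of medians went from -0.73 to -0.45.

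After Lipo-MK1775+NLG, whose libraries both had a low mitochondrial share, limma called 0 of 40 genes, with 1 at an unadjusted p under 0.05 and 0.00646% of all genes called lower. Of all 15469 genes, 390 had an unadjusted p under 0.05. The genes' median was -0.31 and that of all genes -0.02, and 36 of 40 genes lay below the median of all genes. Both libraries were below both controls for 24 genes, against 23.4% of all genes, and above them for 1, against 20.7%. The 5 genes of smallest p were Nbn (-1.82 (SE 0.46, adjusted p = 1)), Atr (-1.43), Atrip (-0.77), Rbbp8 (-0.71) and Mre11a (-0.96). At locus level they were -0.25, -0.38, 0.30, -0.55 and -0.24, so the Nbn value was set largely by which transcripts carried the symbol. As a level within each library, the median of the 40 genes' log2(ppm + 1) minus the median of all genes was -0.18 and -0.07 in the control, -0.60 and -0.36 after Free-MK1775, -0.87 in Free-MK1775+NLG919 replicate 1, and -0.43 and -0.59 after Lipo-MK1775+NLG. Each of these 5 treated libraries of low mitochondrial share was thus below both controls.

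Between treated groups, Lipo-MK1775 against Free-MK1775 gave 2 genes that fell, Trp53bp1 (-1.76 (SE 0.35, adjusted p = 0.0447)) and Wrn (-3.22 (SE 0.72, adjusted p = 0.0491), -1.32 at locus level), where 2.91% of all genes fell and 0.478% rose. Palb2 (-1.54), Rbbp8 (-1.79) and Fancm (-1.51) followed with adjusted p values of 0.0578 to 0.0591. The count of called genes dropped without any single library of the control, Free-MK1775, Lipo-MK1775 or Lipo-MK1775+NLG. It grew without either Free-MK1775+NLG919 library, where not all called genes of the set fell. The share of all genes called dropped and grew in the same fits. Lipo-MK1775+NLG against Lipo-MK1775 gave 3 genes that rose, Trp53bp1 (1.59 (SE 0.35, adjusted p = 0.0456)), Prkdc (1.72 (SE 0.40, adjusted p = 0.0488)) and Xrcc5 (1.05 (SE 0.25, adjusted p = 0.0492)), where 4.6% of all genes rose and 0.737% fell, and Blm (1.75) and Fancm (1.50) had adjusted p values of 0.0534 and 0.0554. That count dropped and grew without the same libraries, again together with the share of all genes called. Both comparisons set libraries of high against libraries of low mitochondrial share.

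Adding NLG919 to the free form, limma called 0 of 40 genes, with 9 at an unadjusted p under 0.05 and 0% of all genes called in either direction. Of all 15469 genes, 1657 had an unadjusted p under 0.05. Wrn (-2.61), Chek1 (-1.01), Rbbp8 (-1.31), Polq (-1.14) and Chek2 (-1.0) had the smallest p, each with an adjusted p of 0.432. At locus level the lowest value of the set was -1.46, so the Wrn value was smaller in size there. Chek2 was then at 11.8 and 13 ppm after Free-MK1775 and at 8.78 and 12.6 after Free-MK1775+NLG919. Between the forms with the second drug, Lipo-MK1775+NLG minus Free-MK1775+NLG919, limma called 0 of 40, with 9 at an unadjusted p under 0.05 and 0.00646% of all genes called higher. Of all 15469 genes, 1936 had an unadjusted p under 0.05. Prkdc (1.09), Rbbp8 (1.21), Chek1 (0.89), Blm (1.15) and Wrn (1.82) had the smallest p, each with an adjusted p of 0.373. The highest value of the set at locus level was 1.36, so the Wrn value was smaller there. Without Free-MK1775+NLG919 replicate 1 these counts were 19 and 21, in fits that called 36.7% and 39% of all genes. Whether NLG919 went with a different change in each form was tested as an interaction (Lipo minus free), which was called for 17 of 40 genes, all positive. Over all genes 19.6% were called positive and 1.45% negative. At locus level it was called for 32 of 41, against 42.3% of all genes. The count by symbol was 0 when any 1 library of the control, Free-MK1775, Lipo-MK1775 or Lipo-MK1775+NLG group was left out, and was 32 and 17 without Free-MK1775+NLG919 replicate 1 and 2, where 57.1% and 23.8% of all genes were called. In Lipo-MK1775 the libraries without NLG919 were those of high mitochondrial share, so drug and share cannot be told apart here.

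The checkpoint and repair genes are long: the median transcript length of the 40 tested was 4528 bases, against 2512 for all genes tested, and 21 of the 40 were in the longest of 5 equal length classes. Over all genes, the median change after Lipo-MK1775 went from -0.13 in the shortest class to -1.20 in the longest, and after Free-MK1775+NLG919 from 0.05 to -0.81. After Free-MK1775 it went from 0.04 to -0.16 and after Lipo-MK1775+NLG from 0.05 to -0.13. Each gene was therefore set against the genes of its own class, formed from 5 classes of level by 5 of length; the classes that held a gene of the set had 366 to 972 genes. Against its class median a gene of the set was lower in 30 of 40 cases after Free-MK1775, 31 after Free-MK1775+NLG919, 32 after Lipo-MK1775 and 36 after Lipo-MK1775+NLG. The medians of these differences were -0.19, -0.50, -0.37 and -0.20, smaller in size than the -0.25, -0.73, -0.60 and -0.29 relative to all genes. When the library values were centred within these classes before the fit, limma called 0 of 40 genes in each of the 4 comparisons, with 0, 12, 9 and 1 at an unadjusted p under 0.05. Of all 15469 genes, 478, 2785, 3699 and 708 had such an unadjusted p.

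**Figure D4:**
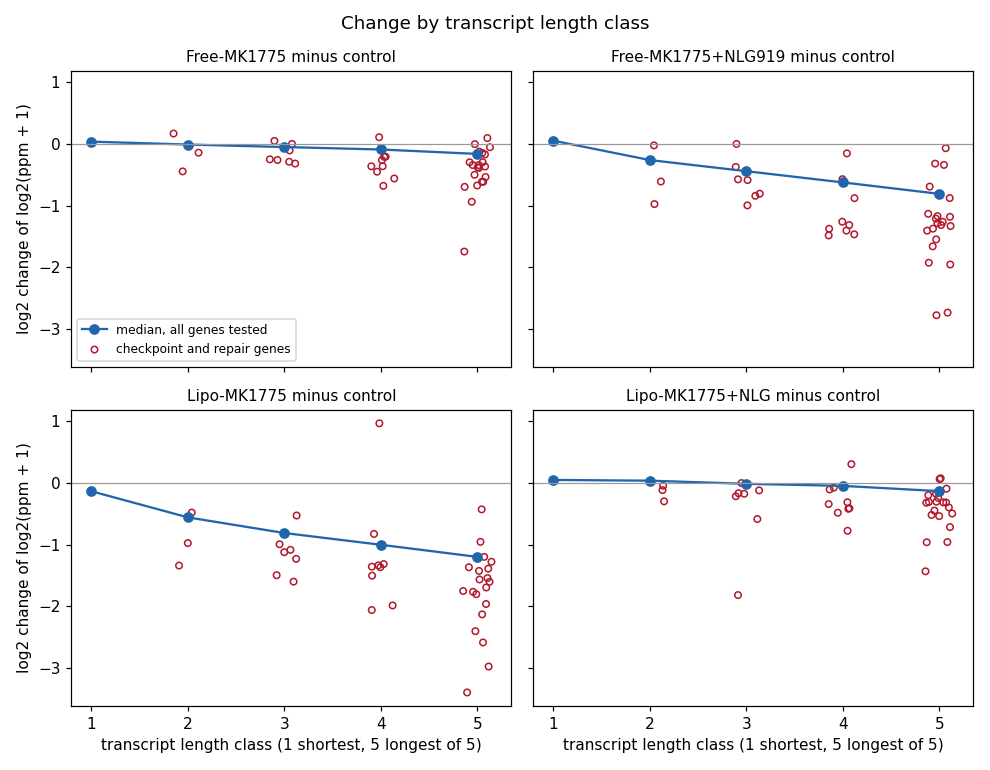
Log2 change against the control (vertical axis) by class of transcript length (horizontal axis, 5 equal classes of all genes tested) in the 4 treated groups; blue points joined by lines are medians of all genes tested and red circles are the 40 checkpoint and repair genes. The blue line slopes down most after Lipo-MK1775, from -0.13 to -1.20, and most red circles of the longest class lie under it in each panel.

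Further repair genes outside the set were counted in the same way. Of 113 tested genes in 8 lists of further repair steps, 29 fell (25.7%) and 0 rose after Lipo-MK1775, where 19.4% of all genes fell with a median of -0.78. Their median transcript length of 2584 bases was close to that of all genes. Nucleotide excision repair had the most, with 9 of 14 and a median of -1.28. The other lists were the 9-1-1 clamp and fork protection (3 of 15, median -1.13), further homologous recombination genes (4 of 23, -0.94), further Fanconi genes (1 of 14, -0.79), further end-joining genes (2 of 13, -0.69), further ubiquitin and chromatin steps (4 of 11, -0.94), further mismatch repair genes (2 of 6, -1.28) and further base excision genes (4 of 17, -0.82). After each of the other 3 treatments limma called 0 of the 113.

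Cell cycle genes were counted beside the set. The 16 mitosis genes summed to 158 to 320 ppm in the 3 libraries of high mitochondrial share and to 539 to 857 in the other 7, and their median changes were -0.27, -1.48, -1.69 and -0.43 after Free-MK1775, Free-MK1775+NLG919, Lipo-MK1775 and Lipo-MK1775+NLG. After Lipo-MK1775 4 of 16 fell, as did 8 of 19 DNA replication genes (median -1.08), 4 of 13 genes of WEE1 and the CDK1 switch (-1.07) and 1 of 15 p53 targets (-0.96), where 19.4% of all genes fell and the median of all genes was -0.78. Of these lists 0 genes were called after the other treatments. Wee1, the drug's target, fell after Lipo-MK1775 (-1.31, adjusted p = 0.0389) and was at -0.22 after Free-MK1775, -1.31 after Free-MK1775+NLG919 and -0.44 after Lipo-MK1775+NLG. The proliferation marker Mki67 was at -3.02 after Lipo-MK1775 (adjusted p = 0.0729) and at -0.65, -3.69 and -0.49 in the same other groups, and the p53 target Cdkn1a at -0.61, -0.32, -0.72 and -0.27. The part of the cell cycle genes in the result was not tested, and in bulk tumours fewer dividing cells and less RNA per cell cannot be told apart.

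The labelled cell type was checked against 9 epithelial markers of 4T1 cells (Epcam, Cdh1, keratins and claudins), which summed to 953 to 1933 ppm over the 10 libraries with at most 2 of 9 at 0. Their sums of 1092, 953 and 1492 ppm in the 3 libraries of high mitochondrial share overlapped the 1340 to 1933 of the others. The 8 endothelial markers summed to 82.0, 50.3 and 42.7 ppm in the 3 libraries and to 104 to 165 in the others, with 5 of 8 called lower after Lipo-MK1775, against 19.4% of all genes. Calls are not given here for the other marker lists, so this count does not show a fall particular to endothelial markers. Macrophage markers summed to 2441 to 3117 ppm and to 2470 to 5947, T and NK cell markers to 13.7 to 44.2 and to 39.4 to 85.4, and fibroblast markers to 173 to 748 and to 251 to 591. Neutrophil markers summed to 560 to 2006 and to 750 to 2381, erythroid markers to 143 to 896 and to 135 to 726, and muscle markers to 3.57 to 70.5 and to 63.7 to 607. The part of the cell make-up in the changes of the checkpoint and repair genes was not tested.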

How the data were processed

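RNA from subcutaneous 4T1 tumours was sequenced in 10 libraries, 2 in each of 5 groups. The submitters' processing notes name FastQC, Trim Galore, HISAT2, StringTie and build GRCm39, without versions. The authors deposited FPKM per transcript (scaled to transcript length and to mapped fragments), and mitochondrial transcripts count toward that total. No read counts were used, and the strand setting is not given in the sources used here. Of 161762 transcripts, 21051 had no symbol; 14868 of these were added to the symbol they overlap in the alternative called locus level, and 6183 were left out. FPKM were summed per symbol, divided by the library's sum over all rows not on the mitochondrial chromosome and multiplied by 1000000.

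Genes at 1 or more in at least 2 libraries (15469) entered 1 limma fit (version 3.58.1 in R 4.3.3) of log2(value + 1) with group means and a trended variance, after the script had been tested on simulated data. Fold changes on this scale understate the change of low genes. Tests were two-sided, with Benjamini-Hochberg adjustment over all genes tested and calls at an adjusted p under 0.05. The 4 comparisons with the control share its 2 libraries. The members, their roles and the other lists were chosen with earlier results of these data known. Values were given for every gene called; beyond 10, for the 10 with the largest change, and where fewer than 5 were called, for the 5 of smallest p, plus Atr, Chek1, Atm, Chek2, Brca1, Brca2, Parp1 and Prkdc throughout. Alternatives were FPKM as deposited, median-of-ratios scaling, centring within classes of level and length, pseudocounts of 0.5 and 5, no filter, added transcripts, the highest transcript alone, no trend, only the groups compared, leaving out libraries and a replicate block. Adding transcripts and centring together was chosen after seeing the data. Counting intervals were not computed, since the deposited values are not counts.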

Additional observations from a re-analysis of the deposited data

Results flagged for a closer look

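The change with NLG919 in the Lipo form minus that in the free form (the interaction in the limma fit, on the log2 scale) was called for 17 of 40 checkpoint and repair genes, all positive, where 19.6% of all genes tested were called positive and the median of all genes was 1.12. The values were 5.05 for Wrn, 3.53 for Rad50, 3.00 for Rbbp8, 2.77 for Msh6, 2.76 for Blm, 2.52 for Fancm, 2.44 for Prkdc and 2.28 for Rnf168. Lower values were found for Brip1 (2.23), Polq (2.07), Parp1 (1.92), Trp53bp1 (1.91), Fanci (1.87), Chek1 (1.87), Chek2 (1.86), Xrcc6 (1.48) and Xrcc5 (1.31). Standard errors ran from 0.355 (Xrcc5) to 1.01 (Wrn), and adjusted p values from 0.039 to 0.048. The added drug went with higher levels in the Lipo form, whose libraries with the drug had a low mitochondrial share and those without it a high share, and with lower levels in the free form, where 1 of the 2 libraries with the drug had a high share. Drug and share therefore cannot be told apart here. At locus level 32 of 41 genes were called, against 42.3% of all genes, and Chek2 was at 0.13, Rbbp8 at 1.77 and Wrn at 2.25. Without any single library of the control, Free-MK1775, Lipo-MK1775 or Lipo-MK1775+NLG 0 genes were called, and without Free-MK1775+NLG919 replicate 1 and 2 the counts were 32 and 17.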

How the results depend on the processing

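Counts of called genes for Lipo-MK1775 against the control (21), Lipo-MK1775 against Free-MK1775 (2), Lipo-MK1775+NLG against Lipo-MK1775 (3) and the interaction (17) moved with the processing, in that order. FPKM as deposited gave 35, 24, 26 and 25; added transcripts 34, 25, 24 and 32; median-of-ratios scaling 3, 0, 0 and 0; centring within classes 0, 0, 0 and 0; added transcripts with centring 1, 0, 0 and 0; the highest transcript alone 5, 0, 0 and 0; no filter 6, 0, 0 and 0; pseudocount 0.5 19, 1, 3 and 17; pseudocount 5 26, 1, 0 and 18; and no variance trend 23, 0, 2 and 15. Only the groups compared gave 32, 13 and 17. The replicate block gave 11, 0, 0 and 0. Genes of the set tested were 39 with FPKM as deposited, 41 with added transcripts or no filter, and 40 otherwise. The share of all genes called moved as well. In the same order it was 48.2%, 48.3%, 54.8% and 47% with FPKM as deposited. It was 41.6%, 29.5%, 35.8% and 44.6% with added transcripts, and 6%, 0.981%, 1.31% and 0.327% with median-of-ratios scaling. Centring within classes gave 2.3%, 1.07%, 0.937% and 0.2%. Pseudocount 0.5 gave 20.9%, 3.33%, 5.35% and 20.6%, and pseudocount 5 gave 21.7%, 2.76%, 2.31% and 21.2%. No filter gave 6.46%, 0.273%, 0.343% and 0.0868%, and no variance trend 19.1%, 1.03%, 3.14% and 15.8%. The highest transcript alone gave 5.98%, 0.933%, 0.887% and 0.88%. The replicate block gave 13.7%, 0.388%, 0.265% and 0.465%. Added transcripts with centring gave 9.51%, 4.2%, 3.33% and 2.38%. Only the groups compared gave 41.2%, 24.5% and 39.2%. Deviations of same-numbered libraries had correlations of -0.204 to 0.0654 over 10 pairs of groups, 5 of them positive. With 1 difference per group these values cannot decide whether same-numbered libraries were paired, and the labels do not say.

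Leaving out 1 library gave ranges of 0 to 35, 0 to 28, 0 to 29 and 0 to 32 for the same 4 counts. Where no gene was called, counts rose without Free-MK1775+NLG919 replicate 1 in the comparisons with that group, as did the share of all genes called. Those for Free-MK1775 and Lipo-MK1775+NLG against the control did not move. With 1 library left in a group, its spread was taken from the other groups.

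The genes' median minus that of all genes after Free-MK1775+NLG919 (-0.735) was -0.416 with FPKM as deposited, -0.498 centred within classes, -0.397 with added transcripts and centred, -0.412 with pseudocount 5, -0.975 with no filter and -0.450 without the 3 libraries of high mitochondrial share, with -0.849 to -0.450 when 1 library was left out. After Lipo-MK1775 (-0.600) it was -0.290, -0.370, -0.277 and -0.983 for deposited FPKM, centring, added transcripts with centring, and no filter, and -0.749 to -0.547 without 1 library. Without 1 library it was -0.335 to -0.150 after Free-MK1775 and -0.315 to -0.216 after Lipo-MK1775+NLG. For Lipo-MK1775+NLG against Lipo-MK1775 it turned to -0.0159 with FPKM as deposited.

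Single genes changed sign as follows; the cause was not tested beyond the transcripts summed. Exo1 after Free-MK1775 was 0.0074 with added transcripts and centring. Atrip was 0.271 and 0.394 after Free-MK1775 and 0.303 and 0.386 after Lipo-MK1775+NLG with added transcripts and with centring as well, and 0.0624 for its highest transcript. With added transcripts and centring, Rbbp8 was 0.191 for Lipo-MK1775 against Free-MK1775 and Chek2 was 0.204 for NLG919 added to the free form. Of the 220 alternative values of the 10 genes named after Lipo-MK1775, 113 kept their call and direction and 107 kept the direction alone. Without the 3 libraries of high mitochondrial share no value could be fitted for Lipo-MK1775 or the interaction.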
